A study of Mus musculus with 8 samples.

Results

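The genes described here are 10 genes of the pre-B cell receptor and of the early B lineage, measured by RNA-seq in cochleae of mice with an intact miR-29a gene (WT) or without it (KO). They are Igll1 and Vpreb1, which encode the surrogate light chain, the related gene Vpreb3, Cd79a and Cd79b, the signalling chains of the B cell receptor, Rag1, Rag2 and Dntt, which act in antigen receptor gene recombination, and the transcription factors Ebf1 and Pax5. Members were found by gene symbol, and all 10 were present among the 21895 genes of the deposited table. They were chosen by name with the difference between the genotypes in these libraries already known. Their differences between KO and WT are therefore given as a description. No p-value is given for a member, and counts of members called in the fit over all genes are given only beside the share of all genes called.

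B cells are made in the bone marrow. A progenitor rearranges its immunoglobulin heavy chain genes with the RAG1 and RAG2 recombinase, and terminal deoxynucleotidyl transferase, the product of Dntt, adds bases at the joints. The new heavy chain is paired with the surrogate light chain, made of VPREB1 and the Igll1 product lambda5, and is held at the membrane with CD79A and CD79B as the pre-B cell receptor. Signals from this receptor let the cell divide and go on to rearrange a light chain. The surrogate light chain and recombination genes are off in mature B cells, while Cd79a, Cd79b and Pax5 stay on in them. The cochlea lies inside the temporal bone, which holds marrow, and B cell development is not known as a function of the cochlear epithelium.

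Both groups came from breeding heterozygous mice on a C57BL/6 background, with both miR-29a alleles deleted throughout the body in the KO mice (miR-29a-/-) and intact in the WT controls. The series text gives an age of 21 days and the study's methods give 2 months, and age entered no comparison. There were 4 libraries per group (WT1 to WT4, KO1 to KO4), made strand-specific from whole-cochlea RNA after removal of ribosomal RNA. Nothing in the labels says how many animals went into a library, so the spread between libraries may be partly technical. No row for miR-29a was among those used, and the genotype labels were therefore not checked against the deleted gene.

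Levels are given as FPKM, fragments scaled by transcript length and by the number of mapped fragments, so that levels of different genes can be compared. Total FPKM ranged from 249221 to 288695, and the relative depth, estimated from the lowest values, ranged from 0.953 to 1.17. Of 14990 genes whose mean reached 0.5 FPKM, 767 (5.12%) had an unadjusted p-value under 0.05 in limma, 691 higher and 76 lower in KO, and 0 had an adjusted p-value under 0.05. Over the tested genes the log2 fold change had a median of 0.10. After median-ratio scaling of the libraries it was 0.00, with 52.5% of the called genes higher in KO, and after quantile normalization it was -0.04, with 40.9% higher, against 90.1% for the values as deposited. 2 of the WT libraries stood apart in genes of marrow cells. The summed FPKM of 13 granulocyte genes was 10292 in WT1 and 56.1 in WT3, against 716 in WT2, 990 in WT4 and 1836 to 5469 in the KO libraries, so values are also given without WT1 and without WT3. Cochlear genes were present in every library, with Coch, a protein of the cochlear extracellular matrix, between 1231 and 1927 FPKM.

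In the mouse genome the surrogate light chain genes Igll1 (chr16:16860671-16863985) and Vpreb1 (chr16:16868403-16884348) lie next to each other on the minus strand, 4417 bases apart. Rag2 (chr2:101562122-101632529, plus strand) and Rag1 (chr2:101638282-101649501, minus strand) face each other, 5752 bases apart. Coordinates are those of the deposited table, which match GRCm38. Promoters of 9 of the 10 members were found in RefSeq on GRCm38.p6, in 10 windows of 250 bases before a start site. These were searched on both strands for 3 motifs of B lineage factors. They were CAGGTG, an E-box read by E2A (the product of Tcf3), CCCNNGGG, the core of EBF1 sites, and ATTTGCAT, the octamer read by OCT2 and its coactivator OBF1 (the product of Pou2af1). The E-box was found in the windows of 4 members, Igll1, Vpreb1, Cd79a and Rag1, and in 17.2% of 32851 mouse promoter windows of the same length. The EBF1 core was found in Igll1 (11.8% of all windows) and the octamer in Vpreb3 (1.60% of all windows). The 5 windows with a match are printed from 5′ to 3′ of the gene's strand, with the match in capitals, because the factors that read these motifs were measured in the same libraries. The Cd79a window stops where the coding transcript's annotated exon begins.
Igll1, chr16:16863986-16864235, minus strand: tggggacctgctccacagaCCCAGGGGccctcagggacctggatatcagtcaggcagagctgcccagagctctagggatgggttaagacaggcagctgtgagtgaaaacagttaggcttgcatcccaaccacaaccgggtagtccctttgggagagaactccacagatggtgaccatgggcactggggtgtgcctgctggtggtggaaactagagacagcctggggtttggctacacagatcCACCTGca
Vpreb1, chr16:16869256-16869505, minus strand: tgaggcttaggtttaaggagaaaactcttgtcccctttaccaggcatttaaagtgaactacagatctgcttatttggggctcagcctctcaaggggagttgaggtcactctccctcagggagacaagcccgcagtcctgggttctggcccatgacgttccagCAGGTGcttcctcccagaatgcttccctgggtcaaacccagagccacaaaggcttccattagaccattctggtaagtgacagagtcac
Vpreb3, chr10:75948050-75948299, plus strand: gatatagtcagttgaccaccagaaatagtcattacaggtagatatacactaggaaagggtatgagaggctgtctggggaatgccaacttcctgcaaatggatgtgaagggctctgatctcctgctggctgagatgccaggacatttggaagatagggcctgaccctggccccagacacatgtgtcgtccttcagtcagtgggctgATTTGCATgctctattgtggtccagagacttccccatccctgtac
Cd79a, chr7:24897247-24897380, plus strand: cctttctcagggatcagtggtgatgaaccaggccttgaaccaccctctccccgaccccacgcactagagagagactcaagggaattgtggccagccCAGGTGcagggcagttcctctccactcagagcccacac
Rag1, chr2:101649533-101649782, minus strand: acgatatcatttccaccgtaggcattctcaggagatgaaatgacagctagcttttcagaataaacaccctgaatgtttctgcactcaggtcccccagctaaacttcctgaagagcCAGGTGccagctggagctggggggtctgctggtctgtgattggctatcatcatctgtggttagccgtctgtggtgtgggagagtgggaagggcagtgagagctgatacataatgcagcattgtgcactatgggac
The E-box in Igll1 lies on the opposite strand, 8 to 3 bases before the start site, and reads CACCTG in the printed strand. In Rag1 it starts 135 bases, in Vpreb1 88 bases and in Cd79a 154 bases before the start site. For Cd79a this is the RefSeq start site, which lies downstream of the end of the printed stretch, since the GENCODE exon begins earlier. The octamer of Vpreb3 begins 45 bases before its RefSeq start site. The Vpreb3 and Vpreb1 windows lie inside the deposited gene models, downstream of their 5′ ends at chr10:75943057 and chr16:16884348. A match describes the letters in these windows only, and binding was not measured.

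Igll1 and Vpreb1, the surrogate light chain genes, were low in WT and higher in KO. Igll1, the gene of lambda5, had FPKM of 0.567, 0.728, 0.0610 and 1.05 in WT1 to WT4 and of 2.22, 5.64, 3.26 and 1.60 in KO1 to KO4. Every KO library was above every WT library, and KO2 was the highest. Means were 0.601 ± 0.413 in WT and 3.18 ± 1.78 in KO (SD, n = 4 each), and the log2 fold change of FPKM plus 0.1 was 2.38 ± 0.64 (standard error). Without WT3, the lowest library, it was 1.78.

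Vpreb1 encodes the variable-like part of the surrogate light chain. Its FPKM were 0.579, 0.896, 0.280 and 0.570 in WT1 to WT4 and 2.45, 5.69, 2.53 and 1.65 in KO1 to KO4. The groups did not overlap, and the order of the KO libraries, with KO2 highest and KO4 lowest, was that of Igll1. Means were 0.581 ± 0.251 in WT and 3.08 ± 1.79 in KO (SD, n = 4 each), a log2 fold change of 2.16 ± 0.43. Igll1 and Vpreb1 stood at similar levels within a library, since the ratio of Igll1 to Vpreb1 was 0.907 to 1.29 in the 4 KO libraries, while in WT it ran from 0.218 in WT3 to 1.84 in WT4. Of the 50-base words of the Vpreb1 transcripts, 18.8% also occur in Vpreb2, a near copy of the gene, so reads could be divided between them. The deposited Vpreb1 model is longer than that of GENCODE M21 (chr16:16868403-16870843). Vpreb2 was listed at 0 in all 4 WT libraries and at 0.499, 0.829, 0.278 and 0.0587 FPKM in KO1 to KO4. The sum over both genes was 0.581 ± 0.251 FPKM in the WT libraries and 3.496 ± 2.09 FPKM in the KO libraries (SD, n = 4 each). Vpreb1 overlaps Top3b, which lies on the opposite strand. Top3b had a mean of 15.2 FPKM in WT and 13.6 in KO.

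Vpreb3 encodes a related protein that binds immunoglobulin chains inside the cell and is also used after the pre-B stage. Its FPKM were 3.73, 1.70, 0.284 and 1.47 in WT1 to WT4 and 5.59, 7.87, 5.09 and 2.99 in KO1 to KO4. WT1 was above KO4, so the groups overlapped, which was not so for Igll1 and Vpreb1. Means were 1.797 ± 1.43 in WT and 5.38 ± 2.001 in KO (SD, n = 4 each), a log2 fold change of 1.86 ± 0.64. WT1 held 2.36 times the mean Vpreb3 level of WT2 and WT4, against 0.637 times for Igll1 and 0.790 times for Vpreb1.

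**Figure D1:**
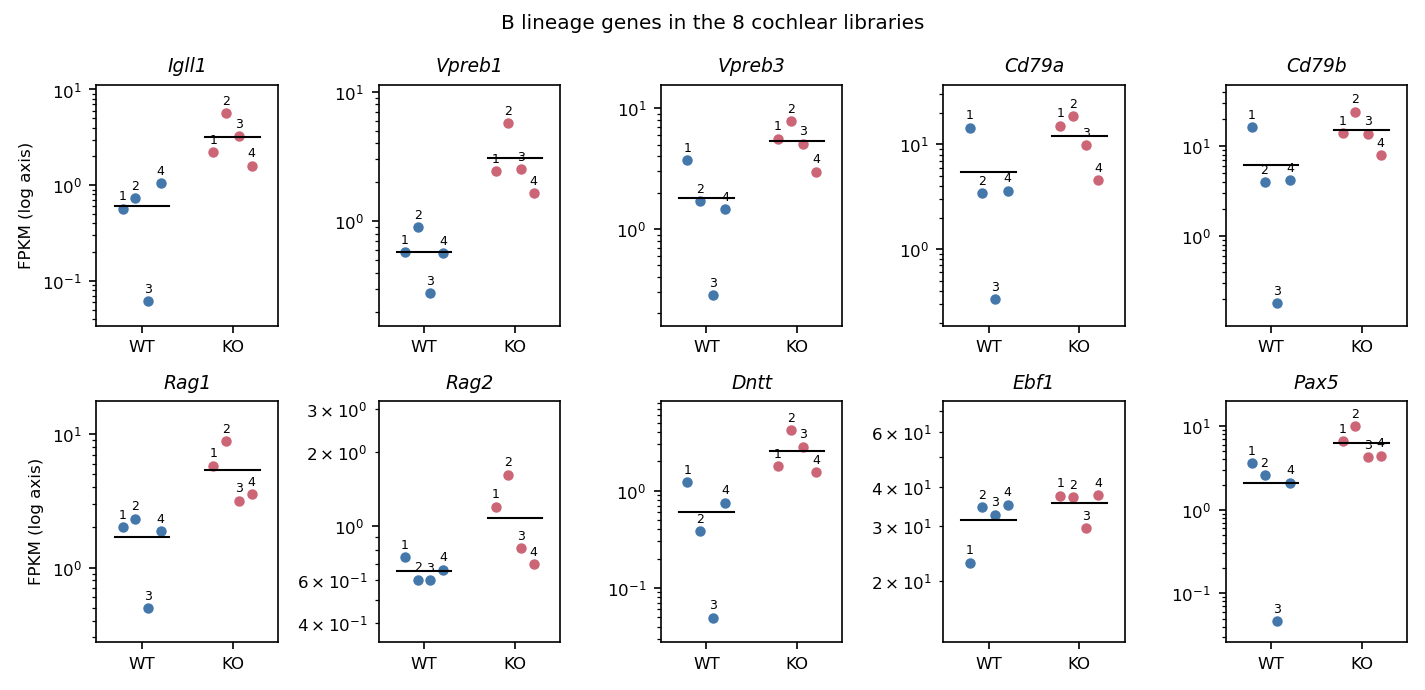
FPKM of the 10 genes in each library on a log axis with its own range per panel. Points are libraries, with the replicate number above each point, blue for WT and red for KO, and black lines are group means. WT3 is the lowest library for 9 of 10 genes and KO2 the highest for 9 of 10, while Ebf1 differs by no more than 1.65-fold between any pair of libraries.

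Cd79a and Cd79b were the most abundant of the members after Ebf1, and their groups overlapped. Both chains carry the cytoplasmic motifs that pass the signal of the pre-B cell receptor and of the mature receptor. FPKM of Cd79a were 14.5, 3.40, 0.334 and 3.61 in WT1 to WT4 and 15.0, 18.6, 9.80 and 4.53 in KO1 to KO4. WT1 lay within the KO range, and KO4 lay closer to WT2 and WT4 than to the other KO libraries. Means were 5.45 ± 6.19 in WT and 12.0 ± 6.15 in KO (SD, n = 4 each), with a log2 fold change of 1.82 ± 0.95. It was 0.89 without WT3 and 2.58 without WT1. Of the words of the Cd79a transcripts, 8.31% occur in the predicted gene Gm32220.

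Cd79b (chr11:106311341-106314762) had FPKM of 16.3, 4.02, 0.182 and 4.18 in WT1 to WT4 and of 13.9, 24.3, 13.9 and 7.99 in KO1 to KO4. WT1 was above 3 of the KO libraries. Means were 6.18 ± 7.02 in WT and 15.0 ± 6.78 in KO (SD, n = 4 each), and the log2 fold change was 2.22 ± 1.07, or 1.08 without WT3 and 3.04 without WT1. In WT the SD was larger than the mean for both chains, and these were also the members in which WT1 was farthest above WT2 and WT4, by 4.12 times for Cd79a and 3.99 times for Cd79b.

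Of the recombination genes, Rag1 and Dntt were higher in every KO library than in any WT library, and Rag2 was not. Rag1, the subunit of the recombinase that cuts DNA, had FPKM of 2.02, 2.33, 0.494 and 1.88 in WT1 to WT4 and of 5.81, 8.86, 3.17 and 3.55 in KO1 to KO4. Means were 1.68 ± 0.813 in WT and 5.35 ± 2.62 in KO (SD, n = 4 each), a log2 fold change of 1.68 ± 0.51. For Rag1, WT1 stood at 0.958 times the mean of WT2 and WT4, so that WT1 was not raised as it was for Cd79a and Cd79b. Without WT3 the log2 fold change was 1.21. Rag1 overlaps the gene B230118H07Rik, which lies on the same strand. Of the 50-base words of the Rag1 transcripts, 0.503% also occur in B230118H07Rik. How reads were divided between these genes was not tested.

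Rag2 encodes the partner of RAG1. Its FPKM were 0.746, 0.602, 0.602 and 0.662 in WT1 to WT4 and 1.20, 1.62, 0.808 and 0.697 in KO1 to KO4. KO4 was below WT1, and WT3 was as high as WT2. Means were 0.653 ± 0.0679 in WT and 1.08 ± 0.417 in KO (SD, n = 4 each), a log2 fold change of 0.59 ± 0.31. The deposited Rag2 model starts at 101562122, upstream of the GENCODE M21 gene (chr2:101624718-101632529), and it overlaps B230118H07Rik, which lies on the opposite strand and had a mean of 4.92 FPKM in WT and 5.32 in KO. What part of the Rag2 values came from this longer model was not tested.

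Dntt (chr19:41029275-41059525) is used in progenitors that have not yet made a pre-B cell receptor. Its FPKM were 1.22, 0.381, 0.0494 and 0.751 in WT1 to WT4 and 1.79, 4.19, 2.84 and 1.54 in KO1 to KO4. The groups were apart, with KO4 the lowest KO library and WT1 the highest WT library. Means were 0.600 ± 0.503 in WT and 2.59 ± 1.21 in KO (SD, n = 4 each), and the log2 fold change was 2.23 ± 0.66, or 1.62 without WT3.

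The transcription factors Ebf1 and Pax5 behaved differently from each other. Pax5 (chr4:44524757-44710487), which commits progenitors to the B lineage, had FPKM of 3.59, 2.60, 0.0466 and 2.11 in WT1 to WT4 and of 6.60, 9.97, 4.28 and 4.44 in KO1 to KO4. The groups were apart, and WT3 stood at 0.0180 times WT2, lower on this ratio than for any other member. Means were 2.09 ± 1.49 in WT and 6.32 ± 2.65 in KO (SD, n = 4 each), a log2 fold change of 2.17 ± 0.94, which was 1.11 without WT3.

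Ebf1 (chr11:44617317-45008091) acts before Pax5 in B cell specification and is also used in mesenchymal and other cells. Its FPKM were 22.9, 34.5, 32.7 and 35.2 in WT1 to WT4 and 37.6, 37.2, 29.6 and 37.8 in KO1 to KO4. It was the highest of the 10 genes and the least variable, WT3 was not low, and WT1 was the lowest library. Means were 31.3 ± 5.70 in WT and 35.5 ± 3.98 in KO (SD, n = 4 each), a log2 fold change of 0.19 ± 0.17, or 0.05 without WT1. The related mesenchymal genes Ebf2 and Ebf3, looked at after the Ebf1 values were seen, had log2 fold changes of 0.22 ± 0.19 and -0.02 ± 0.17. Across the 8 libraries the log2 level of Ebf1 had a Pearson r of 0.161 (Spearman 0.405) with the mean of the 8 members other than the transcription factors. For the other members, each set against the mean of the remaining ones of these 8, r was 0.779 for Rag2 (Spearman 0.976) and 0.902 to 0.975 for the rest. With the genotype means removed, r was -0.258 for Ebf1 (Spearman -0.143), 0.569 for Rag2 (Spearman 0.714) and 0.801 to 0.940 for the rest. All are a description over 8 libraries that differed in marrow genes, and these differences were not of the same size in every gene.

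Ordered by their mean over all libraries, the members ran from Ebf1 (33.4 FPKM) through Cd79b (10.6), Cd79a (8.72), Pax5 (4.20), Vpreb3 (3.59), Rag1 (3.51), Igll1 (1.89), Vpreb1 (1.83) and Dntt (1.59) to Rag2 (0.866). The coefficient of variation over the 8 libraries was 15.2% for Ebf1, 41.4% for Rag2 and 69.8% to 97.4% for the other 8 genes. Most members varied together, so this spread does not measure the difference between neighbours in this order, which was not tested. All 10 log2 fold changes were above 0, with a median of 2.01. In the limma fit 6 of the 10 (Igll1, Vpreb1, Vpreb3, Rag1, Dntt and Pax5) had an unadjusted p-value under 0.05 and were higher in KO, where 4.61% of all tested genes were, and 0 were lower, where 0.507% of all tested genes were. For 5 of the 10 (Igll1, Vpreb1, Rag1, Dntt and Pax5) every KO library was above every WT library, where this held for 3.02% of all tested genes. The same contrast chose the members, so nothing is read from these counts. None of the 10 had an adjusted p-value under 0.05. Since these are bulk samples, more cells of the B lineage and more RNA per cell cannot be told apart.

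**Figure D2:**
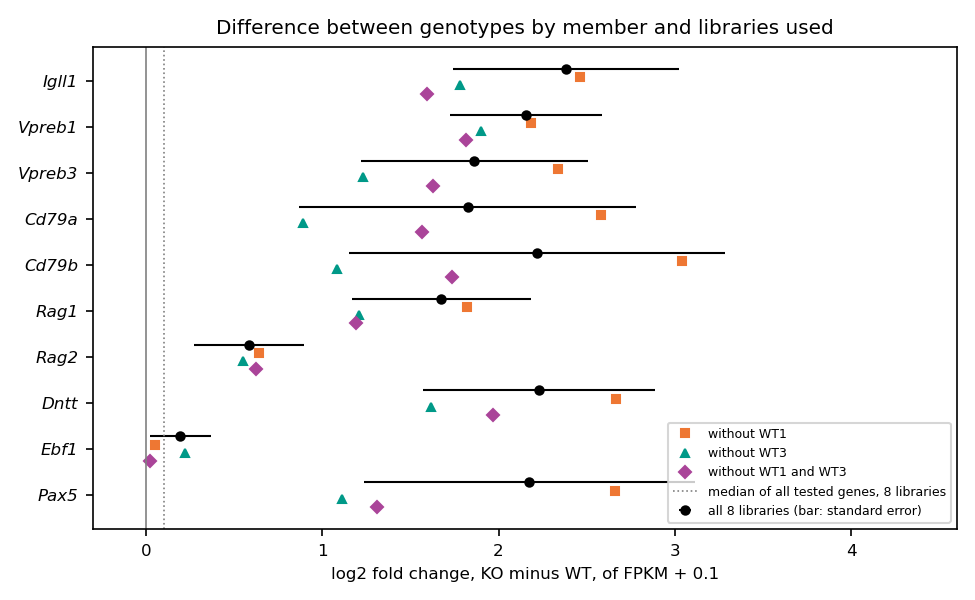
Log2 fold change (KO minus WT, of FPKM plus 0.1) of each member with all 8 libraries (black, bars are standard errors) and without WT1, WT3 or both (coloured symbols). Igll1, Vpreb1, Rag1 and Dntt stay between 1.19 and 2.67 in these 4 fits, Cd79a and Cd79b move between 0.89 and 3.04, and Ebf1 stays within 0.25 of 0.

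The differences depended on WT1 and WT3 to different degrees. Leaving out WT3 took the log2 fold change of Vpreb1 from 2.16 to 1.90, and that of Pax5 from 2.17 to 1.11. Leaving out WT1 took Cd79a from 1.82 to 2.58, and 8 of the 10 members then had an unadjusted p-value under 0.05, Cd79a and Cd79b being added, while 19.5% of all tested genes had one. Without both libraries, a comparison of WT2 and WT4 with the 4 KO libraries that was chosen after the data were seen, the values were 1.81 for Vpreb1, 1.60 for Igll1, 1.97 for Dntt, 1.19 for Rag1, 1.63 for Vpreb3, 1.31 for Pax5, 1.56 for Cd79a, 1.74 for Cd79b, 0.62 for Rag2 and 0.02 for Ebf1. In that comparison 8 of 10 members had an unadjusted p-value under 0.05, beside 16.1% of all tested genes. As before, nothing is read from the counts of members. KO4 was the lowest KO library for 7 of the 10 members, at 1.10 (Rag2) to 2.73 (Dntt) times the mean of WT2 and WT4 for these 7.

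Genes of the early stages and genes kept in mature B cells were set against each other within each library. Igll1, Vpreb1, Rag1 and Dntt, which are on in pro-B or pre-B cells, summed to 4.38, 4.33, 0.884 and 4.25 FPKM in WT1 to WT4 and to 12.3, 24.4, 11.8 and 8.34 FPKM in KO1 to KO4. Cd79a and Cd79b, which are on from the pro-B stage to the mature B cell, summed to 30.8, 7.42, 0.516 and 7.79 FPKM in WT and to 28.9, 42.9, 23.7 and 12.5 FPKM in KO. The early genes per FPKM of the CD79 chains came to 0.142, 0.584, 1.71 and 0.546 in WT1 to WT4 and to 0.424, 0.569, 0.499 and 0.666 in KO1 to KO4. WT2 and WT4 fell within the KO range on this ratio, so both sets of genes were higher by a similar factor in KO than in these libraries. WT1 had CD79 chains at the level of KO1 but a sum of early genes at the level of WT2. WT3 had values close to 0 in both sets. In WT1, Igll1, Vpreb1 and Rag1 stood at 0.637, 0.790 and 0.958 times the mean of WT2 and WT4. Dntt stood at 2.16 times that mean, so the level of the sum did not hold for Dntt. The mature B cell gene Ms4a1, which encodes CD20, was set against Igll1 only, and not against Dntt. The ratio of Ms4a1 to Igll1 was 8.53 in WT1, 1.23 and 1.38 in WT2 and WT4, 0.376 in WT3 and 1.18 to 2.34 in KO.

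**Figure D3:**
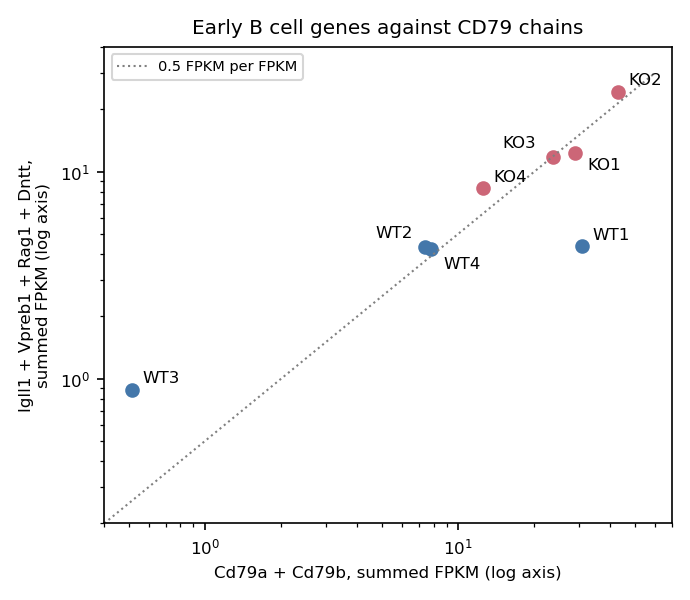
Summed FPKM of Igll1, Vpreb1, Rag1 and Dntt (vertical, log axis) against summed FPKM of Cd79a and Cd79b (horizontal, log axis), with 1 point per library, blue for WT and red for KO, and a dotted guide line at a ratio of 0.5. The other 6 points lie near the line, with ratios of 0.424 to 0.666, while WT1 lies below it at 0.142 and WT3 above it at 1.71.

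Other genes of the B lineage were taken from a list of 76 symbols sorted by stage and function. Of these, 65 were found, and the 11 others were immunoglobulin constant region genes that are not analysed here. Of 63 genes that were tested, 14 rose in KO and 0 fell (22.2%, against 4.61% of all tested genes that were higher), with a median log2 fold change of 0.97 against 0.10 for all tested genes. The 14 genes had Benjamini-Hochberg adjusted p-values of 0.922 to 0.947 in limma, and so none passed the correction. For 8 of the 63 the groups were apart with KO higher, beside 3.02% of all tested genes. Without WT1, 46 rose and 1 fell (Enpep), beside 1810 higher and 1112 lower of 15019 tested genes (19.5% in either direction). Without WT1 and WT3 42 rose and 1 fell (Arpp21), beside 1381 higher and 1049 lower of 15055 (16.1%). Without KO1 8 rose, beside 551 higher of 15000 tested genes, and without KO2 6 rose, beside 323 of 14976, with 0 of the list that fell. With median-ratio scaling and with quantile normalization 9 rose and 1 fell (Enpep), beside 402 and 378 genes higher of 14990 tested. Il7r, Bach2, Klf2 and Xbp1 lost their calls under both scalings, Cd93 under the former and Tnfrsf13c under the latter. Tcf3, Bach2, Cd72 and Tnfrsf13c lost theirs without WT1 and WT3. Sox4, Il7r, Bach2, Spib, Klf2, Cd72 and Xbp1 lost theirs without KO1 and also without KO2, and Irf4 lost its call without KO2. Il7r, Bach2 and Xbp1 lost theirs without WT3, and Il7r, Klf2 and Xbp1 without WT4.

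Among 14 other transcription factors of the lineage, 6 rose (Tcf3, Irf4, Bach2, Spib, Klf2 and Pou2af1) and 0 fell, with a median of 0.79. Pou2af1, the B cell coactivator of octamer factors, had FPKM of 3.67, 2.73, 0.311 and 2.44 in WT1 to WT4 and of 8.70, 15.3, 6.17 and 4.64 in KO1 to KO4, a log2 fold change of 2.12 ± 0.69. Spib, an ETS factor of B cells and plasmacytoid dendritic cells, had FPKM of 4.63, 4.13, 0.290 and 3.83 in WT and of 13.9, 17.2, 9.19 and 5.63 in KO, a log2 fold change of 2.18 ± 0.79. The groups were apart for both genes. Irf4, which acts with PU.1 or SPIB at immunoglobulin light chain enhancers, had a log2 fold change of 1.60 ± 0.54. Tcf3, whose products read the E-box printed above and which is used in many cell types, had FPKM of 10.5, 17.4, 10.02 and 17.3 in WT and of 21.6, 25.7, 19.5 and 19.7 in KO, a log2 fold change of 0.69 ± 0.22. Bach2 (0.85 ± 0.34) restrains plasma cell differentiation, and Klf2 (0.52 ± 0.19) is also an endothelial gene. Without WT1 and WT3 the log2 fold change was 0.31 for Tcf3 and 0.42 for Bach2, and both lost their calls. The most abundant gene of this set, Id3, an inhibitor of E2A, did not pass (0.40 on the log2 scale).

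Among 12 genes of progenitors, 3 rose and 0 fell, with a median of 0.77. Il7r, the receptor for the cytokine on which mouse pro-B cells depend, had FPKM of 3.22, 2.19, 0.725 and 1.11 in WT1 to WT4 and of 5.12, 7.48, 2.20 and 2.95 in KO1 to KO4, a log2 fold change of 1.30 ± 0.52, and WT1 was above KO3 and KO4. Cd93 (0.80 ± 0.25) marks immature B cells and endothelium, and Sox4 (0.80 ± 0.35) is needed for pro-B cells and is used in many tissues. The call of Sox4 was lost without the filter on low values, without the variance trend, and with a replicate block in the fit. It was also lost on leaving out WT2 or any KO library. Without WT1 its log2 fold change was 0.43, with the call kept. Cd24a, the most abundant gene of the set and also an erythroid gene, had a log2 fold change of 0.74, and Enpep of -0.32, and neither passed. Among 15 receptor signalling genes 2 rose and 0 fell, with a median of 0.97. Blk, a kinase of the SRC family in B cells, had FPKM of 1.51, 1.47, 0.326 and 1.71 in WT1 to WT4 and of 2.96, 5.23, 2.92 and 2.75 in KO1 to KO4, a log2 fold change of 1.54 ± 0.48, with the groups apart. Cd72, an inhibitory coreceptor, had 0.97 ± 0.34. The most abundant genes of this set, Prkcb (0.10) and Syk (1.05), did not pass. WT1 was the highest of the 8 libraries for 9 of these 15 genes, Syk among them, which other marrow cells also use.

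Among 15 genes of mature B cells 2 rose (Ltb and Tnfrsf13c) and 0 fell, with a median of 1.40, and WT3 was the lowest library for all 15. Ltb, a lymphotoxin subunit, had FPKM of 1.42, 1.32, 0.410 and 1.27 in WT1 to WT4 and of 2.72, 4.17, 4.91 and 2.33 in KO1 to KO4, a log2 fold change of 1.65 ± 0.41. Tnfrsf13c, the receptor for the survival factor BAFF, had 0.90 ± 0.31. The most abundant gene of the set, Cd74 (0.83), did not pass. Among 6 plasma cell genes 1 rose, Xbp1 (0.38 ± 0.17), a factor of secretory cells in general, and Jchain (1.05) did not pass. The call of Xbp1 was lost without the variance trend, under both scalings, and with only the libraries numbered 1 to 3. It was also lost on leaving out WT2, WT3, WT4, KO1, KO2 or KO3. The tested immunoglobulin gene, Iglc2, had a log2 fold change of 0.76 and did not pass.

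**Figure D4:**
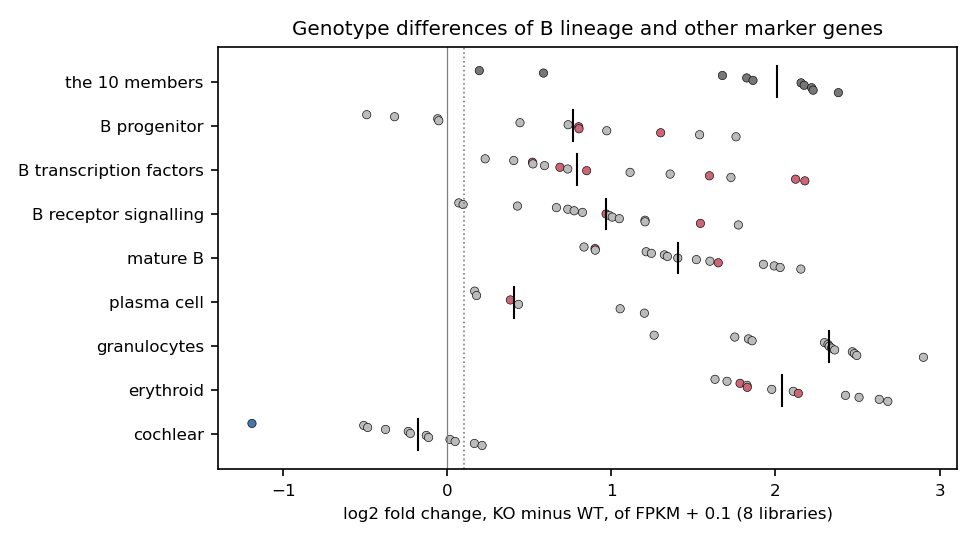
Log2 fold change (KO minus WT, of FPKM plus 0.1) of single genes by list, in all 8 libraries. Points are genes, red for higher and blue for lower in KO at an unadjusted p-value under 0.05, pale grey for the others and dark grey for the 10 members, which are not marked by test; short black lines are list medians and the dotted line is the median over every tested gene, 0.10. Medians are 2.01 for the members, 1.40 for mature B cell genes, 2.33 for granulocyte genes and -0.18 for cochlear genes.

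Genes of other marrow cells were also lowest in WT3. Of 13 granulocyte genes, led by S100a9 and S100a8, 0 rose and 0 fell, with a median log2 fold change of 2.33. Their summed FPKM was 56.1 to 10292 in WT and 1836 to 5469 in KO, WT3 was the lowest library for all 13, and Ctsg was listed at 0 there. Of 12 erythroid genes, led by the globins Hbb-bs and Hbb-bt, 3 rose and 0 fell, with a median of 2.04, and they summed to 450 to 7564 FPKM in WT and to 4926 to 12179 in KO. Of 8 genes of dividing cells, led by Top2a and Mki67, 0 rose or fell, with a median of 1.91 and a sum of 3.24 to 268 FPKM in WT and 87.6 to 215 in KO. WT3 was again the lowest library for all genes of both lists. Of 8 bone genes, led by Col1a1 and Bglap, 2 rose and 0 fell, with a median of 1.08 and a sum of 115 to 777 FPKM in WT and 745 to 938 in KO. The part of these cells in the differences of the B lineage genes was not tested.

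The lists of cells other than marrow and bone cells had medians closer to that of all tested genes, apart from T and NK cells. Of 9 genes of mesenchymal cells and pericytes, led by Dcn and Rgs5, 1 rose (Cxcl12, which is also made by marrow stroma) and 0 fell, with a median of 0.15 and a sum of 274 to 382 FPKM in WT and 319 to 407 in KO. Of 12 cochlear genes, led by Coch and Otos, 0 rose and 1 fell (Tectb, a protein of the tectorial membrane), with a median of -0.18 and a sum of 1336 to 2078 FPKM in WT and 1497 to 1956 in KO. Coch alone gave most of this sum, 1565 of 1644 FPKM in WT1 and 1927 of 2078 in WT3. Among the WT libraries, most other genes of the list were lowest in WT1 and highest in WT3, though not Otos and Myo7a. Otog had 6.56 FPKM in WT1 and 24.2 in WT3, and Otoa had 6.57 and 21.7. Of 7 macrophage genes, led by C1qa and C1qb, 0 rose or fell, with a median of 0.50 and a sum of 68.0 to 144 FPKM in WT and 71.7 to 148 in KO. Of 12 genes of T and NK cells, 6 passed the filter on low values, led by Nkg7 and Cd2, of which 1 rose (Cd4) and 0 fell, with a median of 0.92, and the 12 summed to 3.48 to 32.6 FPKM in WT and 12.8 to 23.6 in KO.

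Set against the erythroid genes of the same library, the early B lineage genes overlapped between genotypes. Igll1, Vpreb1, Rag1 and Dntt per 100 FPKM of erythroid genes came to 0.0579, 0.181, 0.197 and 0.117 in WT1 to WT4 and to 0.185, 0.284, 0.0969 and 0.169 in KO1 to KO4. The lowest of these values was in WT1 and the next in KO3, which had the highest sum of erythroid genes. Per 100 FPKM of granulocyte genes the 4 genes came to 0.0426, 0.605, 1.58 and 0.429 in WT and to 0.339, 0.955, 0.216 and 0.454 in KO, where WT3 was the highest library. Cd79a and Cd79b per 100 FPKM of erythroid genes came to 0.407, 0.310, 0.115 and 0.215 in WT and to 0.437, 0.499, 0.194 and 0.254 in KO.

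**Figure D5:**
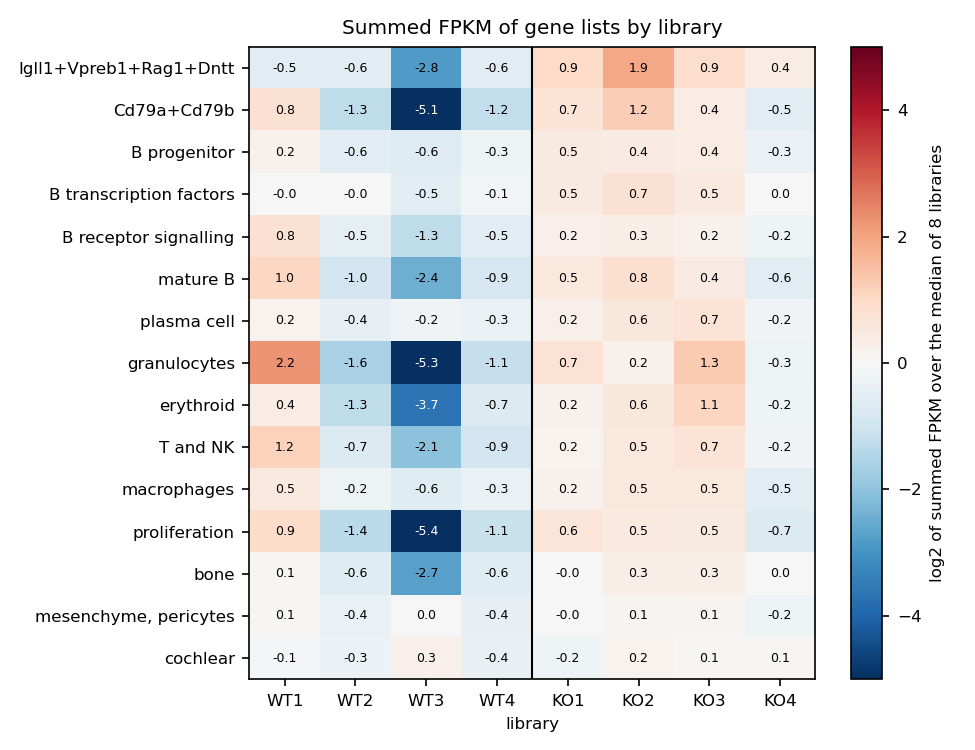
Summed FPKM of each gene list in each library as log2 of its ratio to the median of the 8 libraries, from blue (lower) through white to red (higher), with the value in each cell. The column of WT3 is low for the CD79 chains and for mature B, granulocyte, erythroid, proliferation and bone lists and not for the cochlear list. The column of WT1 is high for granulocyte genes but not for the sum of Igll1, Vpreb1, Rag1 and Dntt. The cochlear sum is mostly Coch.

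The genes whose levels followed the members most closely were found among 14117 other genes whose mean reached 1 FPKM. Likeness was the Pearson r over the 8 libraries between a gene's log2 level and the mean standardised log2 level of the 8 members other than Ebf1 and Pax5. The 10 highest were Irf4 (r of 0.992, Spearman 0.976), Pou2af1, Adam19, Tmod3, Slc17a4, Otud5, Esm1, Aplf, Ifrd2 and Hells (0.978, Spearman 0.929), and r was 0.910 to 0.986 after WT3 and KO2, the libraries farthest from the median, were left out. With the genotype means removed from each gene, the 10 highest were Pou2af1 (r of 0.985, Spearman 0.952), Ifi213, Irf4, H2-Ob, Tmod3, Atp2b4, Xrcc6, Adam19, Slamf6 and Rhoh (0.971, Spearman 0.952), and r was 0.890 to 0.991 without WT3 and KO4. Irf4, Pou2af1, Adam19 and Tmod3 were in both sets. Each point is a library, so differences between libraries, such as those in marrow genes, enter these values, and the same few libraries set every r.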

How the data were processed

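Cochlear RNA from 4 WT and 4 miR-29a KO libraries was grouped by the sample labels. The authors removed ribosomal RNA, aligned the read pairs by Hisat2, and deposited a table of FPKM for each gene. The tool and annotation behind the FPKM are not given in the sources used here. The submitters' processing notes name mm9, but 19771 of 21895 genes have the coordinates of GENCODE M21 on GRCm38, so the file was read as GRCm38. FPKM carry no counts, and counting error cannot be given. Column totals differ, and no further scaling was applied.

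The log2 of FPKM plus 0.1 was fitted with limma 3.58.1 in R 4.3.3, with genotype as the only factor and a mean-variance trend, for genes whose mean reached 0.5 FPKM, and checked on simulated data. A two-sided p-value under 0.05 before adjustment made a gene called, as in the study, with Benjamini-Hochberg adjustment over all tested genes beside it. The study tested counts, which were not used here. It gives fewer samples per group than the 4 libraries used here, and does not say which ones. A fold change on this scale understates the change of low genes.

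The members and gene lists were chosen with earlier results of these data known. Genes named are the members, called genes of the wider B lineage list, the 2 most abundant genes of each list, and the 10 genes most like the members by each measure. A gene that this rule also names is not reported here. Other genes (Ebf2, Ebf3, Top3b, B230118H07Rik, Vpreb2, Ms4a1, Ctsg, Otog, Otoa, Myo7a, and called genes of other cell types) were named after their values were seen. WT and KO libraries share replicate numbers, but after the group means were subtracted, same-numbered libraries correlated at 0.42, -0.24, -0.17 and 0.21, so the numbers were not taken as pairs. Alternatives were other pseudocounts, filters and scalings, no trend, 6 libraries, the block, and leaving out libraries. Motifs were searched in RefSeq promoters. Per-sample columns left unused numbered 0.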

Additional observations from a re-analysis of the deposited data

Results flagged for a closer look

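Ebf1 in KO3 had 29.6 FPKM, against 37.2 to 37.8 FPKM in the other KO libraries. Its gap to the nearest library was 0.924 of the range of the 4 KO libraries, above Dixon's 95% critical value of 0.829. Of 20 groups checked (10 genes in 2 genotypes) this was the only 1 past the critical value, and chance gives about 1 in 20.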

How the results depend on the processing

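Every member kept a log2 fold change above 0 in all fits that were run. The number of members called was 6 of 10, and 4 to 8 with 1 library left out. The number of all genes called was 767, and 347 to 2922 with 1 library left out, highest without WT1 and lowest without KO3. The number called in the wider B lineage list was 14, and 6 to 47 with 1 library left out, again highest without WT1 and lowest without KO2. Without both WT1 and WT3, 2430 genes in all and 43 of the list were called. Without WT3 the log2 fold changes of Cd79a, Cd79b and Pax5 were 0.89, 1.08 and 1.11. With a pseudocount of 1 those of Igll1, Vpreb1 and Dntt were 1.33, 1.29 and 1.16. Of all genes called, 691 were higher and 76 lower as deposited, 402 and 363 after median-ratio scaling, and 378 and 547 after quantile normalization. With a replicate block in the fit, 838 genes in all, 6 members and 19 genes of the list were called. The replicate numbers pair nothing in the labels, only 3 of 8 libraries correlated best with their own number, and the block changed no member's call. In the 6 libraries with numbers 1 to 3, 5 members were called, beside 4.51% of all tested genes.

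FPKM without counts limit what can be said of low genes. Vpreb2, at 0 in WT, has no fold change, and the counting error of the WT3 values near 0.05 FPKM is unknown. With 0 genes past the adjusted threshold, single calls outside the members are candidates only.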
